A study of Mus musculus with 12 samples.

Results

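Normal forestomach of the mouse was described here by what it expresses relative to a common reference pool. The forestomach samples were the 4 controls of a series of 12 two-colour Agilent mouse expression arrays. They were chosen by their titles, which call them negative controls, and no contrast with alcohol enters the description. Every sample is total RNA of the entire forestomach, taken from adult C57BL/6J mice that were wild type. The controls received supersaccharin without alcohol. In the other 8 samples, mice drank 20% alcohol in supersaccharin for 4 weeks (4 samples) or 15% alcohol for 40 weeks, where saccharin is not mentioned (4 samples). The forestomach RNA was labelled with Cy5 on every array. The other dye, Cy3, marked Universal Mouse Reference RNA from Agilent, so the comparison lies between the channels of each array and no dye swap balances the dyes. Nothing in the labels says that the replicates are separate animals, so the spread between them, and the p-values that rest on it, may in part be technical. The pool was not hybridised against itself, so its own spread is left out of every test.

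The forestomach is the upper compartment of the rodent stomach. It is lined by a keratinised stratified squamous epithelium, in which basal cells divide, move up, fill with keratin filaments and end as dead cornified cells that are shed. Below the epithelium lie connective tissue, vessels, an enteric nerve net and smooth muscle, and the glandular stomach, with its mucous, acid and pepsinogen cells, begins at the limiting ridge. The reference is a commercial pool of RNA from cultured mouse cell lines, among them lines of embryo, fibroblast, kidney, liver, lung macrophage, B and T lymphocyte, mammary, muscle, skin and testis origin. A ratio above 0 therefore means more signal from forestomach than from that mixture, per array, and a ratio below 0 means less. In whole tissue, fewer cells of a type and less RNA per cell cannot be told apart. The mouse strains of the pool's lines are not known here, so a difference of strain cannot be told apart from one of tissue.

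The values are the deposited log2 ratios (Cy5 over Cy3). They were used for 30278 of 41174 probes, those with a Cy5 spot well above background on 3 or 4 control arrays. Of the probes just inside that limit, 1823 passed on 3 arrays with a median raw Cy5 signal of 73.6, and 1608 just outside passed on 2 with 65.8. The median was 532 for the 28455 probes that passed on all 4. One probe stood for each of 20602 genes, 17343 of them with a symbol. The filter acts on forestomach alone, so genes dim in forestomach drop out, and every count below covers the kept members of a list, not all of them. The 4 control arrays lay on 1 slide and had no saturated spot, and 73.9% to 78.8% of their spots were well above background in Cy5 and 72.9% to 84.1% in Cy3. Pearson's r between pairs of arrays, across genes, ran from 0.878 to 0.957, and genes are not independent replicates. The median gene had a standard deviation (SD) of 0.29 over the 4 arrays on the log2 scale.

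Forestomach was higher than the pool for 3142 genes (15.3% of those tested) and lower for 1856 (9.01%), by limma's treat test against a log2 ratio of 1, that is, a difference of more than 2-fold, at a Benjamini-Hochberg adjusted p under 0.05. The median over all genes tested was 0.15. The shares of 15.3% and 9.01% and this median are the background for every list below. The excess was on the high side at the extremes as well: 893 genes had a mean above 4 and 85 a mean below -4. All 4 arrays lay above 1 for 3120 of the genes called higher and below -1 for 1823 of those called lower. The calls rest on these same values, so this is no separate support for them. Where called genes had other kept probes, 92.2% of those 2217 probes had the same sign. The split between the directions depends on the centring. With median centring of background-corrected scanner signals in place of the deposited normalisation, the median gene sat at -0.21 and higher genes made up 37.5% of the calls, against 62.9% in the deposited ratios. The genes named below come from the 25 highest and the 15 lowest, the 3 highest and the lowest of each list, and those that differ most between arrays. Other list members are named for their known role and were picked after their values were seen.

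**Figure D1:**
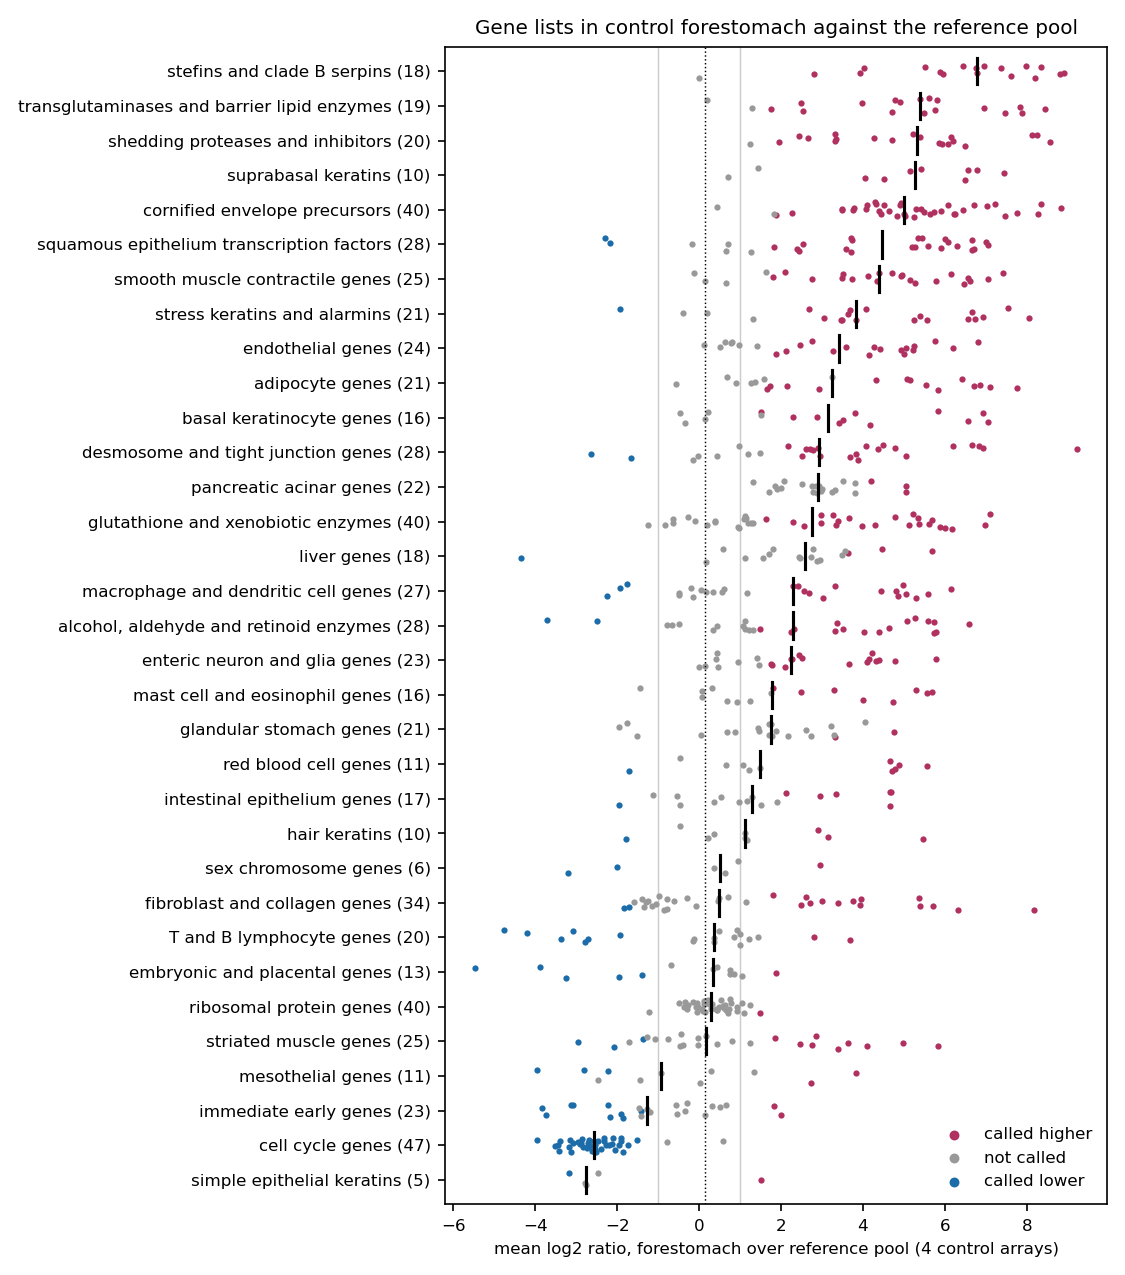
Mean log2 ratio of forestomach over the reference pool (horizontal axis) for every kept member of 33 gene lists, with the number kept in parentheses. Each point is the mean of the 4 control arrays, the short black bar is the list's median, the dotted line is the median of all genes tested (0.15), and colours give the call of limma's treat test. The lists of stefins and serpins (median 6.77) and of barrier enzymes (5.40) lie farthest to the right, and the cell cycle list lies to the left with a median of -2.58.

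Precursors of the cornified envelope, the cross-linked protein shell of dead squamous cells, were among the highest genes. Of 41 on the array, 40 were kept, 38 were higher and none was lower, and the list's median was 5.01 against 0.15 for all genes. Kprp, a keratinocyte proline-rich protein, read 8.94, 8.65, 8.89 and 8.91 on replicates 1 to 4, with a mean of 8.85 ± 0.13 (SD, n = 4), which is 460-fold (adjusted p = 2.69e-06). Its probe lies at chr3:92627072-92627131 on build mm9. Lce3f, a late cornified envelope protein, read 7.90, 8.62, 8.97 and 7.93, and Hrnr (hornerin) read 8.05, 8.0, 8.47 and 8.62. All of these values are far from 0 on every array. Loricrin, the chief protein of the envelope (Lor), had a mean of 7.23 ± 0.55 (SD, n = 4), the small proline-rich protein Sprr3 of 6.44 ± 0.32, involucrin (Ivl) of 5.90 ± 0.28 and filaggrin (Flg), which bundles keratin filaments, of 5.25 ± 0.45. The lowest kept member was Sprr2a1 at 0.43 ± 0.48, which was not called, though its probes disagreed and their median of 2.59 was called. Sprr2h, at 1.83 ± 0.73, was the other member not called (adjusted p = 0.0546). The Lce and Sprr2 genes are families of near copies, so a probe may read more than 1 of them.

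These genes sit together. In windows of 1 Mb on mm9, 31 of 33 genes tested between 92 and 93 Mb of chromosome 3 were higher, with a median of 5.30, where the median window of the 1418 with at least 5 genes had 14.3% of its genes higher. This stretch is the epidermal differentiation complex, where the Lce, Sprr and Ivl genes lie side by side. The window of the type II keratins, on chromosome 15 from 101 to 102 Mb, had 13 of 34 genes higher and 5 lower, with a median of 0.37. On chromosome 1 from 109 to 110 Mb, all 7 genes tested were higher and each is a clade B serpin, among them Serpinb3b and Serpinb3c.

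Some promoters of these genes are printed because 2 short motifs were more frequent among them than over all promoters. Each motif was still absent from most of them. In the 300 bases from 250 before to 50 after the start of transcription (RefSeq, GRCm38.p6), TATAAA on either strand was present in 48.5% of 33 envelope promoters, 40.0% of 15 promoters of stefins and clade B serpins, and 10.02% of the 13174 promoters of genes tested. TGACTCA, the letters bound by AP-1 factors, counted on both strands, was present in 27.3%, 20.0% and 4.05% of them. The envelope promoters held a median of 1 CpG and 46.7% G or C, against 18 CpG and 59.3% over all. High TATAAA shares were not confined to squamous genes: the list of alcohol, aldehyde and retinoid enzymes had 47.6% and the pancreatic list 43.8%. Of 7 hair keratin promoters, 71.4% held TATAAA. A match describes letters and is not a bound site. The Lce, Sprr2, stefin and serpin genes include near copies, so their promoters are not independent of each other. Other motifs were searched too, among them GGGCGG, present in 6.06% of the envelope promoters and 57.0% of all. The 100 bases that end just before the start are given 5′ to 3′ on the gene's strand for the 4 envelope genes and the 2 serpins with the highest ratios among those with TATAAA in that stretch, and capitals mark TATAAA and TGACTCA in either orientation.
Hrnr, chr3:93319649-93319748, plus strand: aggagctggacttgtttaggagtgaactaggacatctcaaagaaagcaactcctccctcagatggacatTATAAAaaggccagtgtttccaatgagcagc
Lor, chr3:92083143-92083242, minus strand: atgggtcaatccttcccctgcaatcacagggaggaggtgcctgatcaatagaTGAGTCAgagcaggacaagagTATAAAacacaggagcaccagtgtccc
Rptn, chr3:93393599-93393698, plus strand: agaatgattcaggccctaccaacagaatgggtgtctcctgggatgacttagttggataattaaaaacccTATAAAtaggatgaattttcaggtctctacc
Lce1m, chr3:93019062-93019161, minus strand: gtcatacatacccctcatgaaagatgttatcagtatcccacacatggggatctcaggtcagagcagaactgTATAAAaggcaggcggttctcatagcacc
Serpinb3b, chr1:107161115-107161214, minus strand: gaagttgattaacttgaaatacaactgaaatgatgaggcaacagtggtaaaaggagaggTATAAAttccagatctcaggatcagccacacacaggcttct
Serpinb3c, chr1:107278372-107278471, minus strand: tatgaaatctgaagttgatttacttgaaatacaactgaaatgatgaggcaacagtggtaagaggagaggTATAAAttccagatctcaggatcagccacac

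Of these stretches, that of Lor holds both motifs, and those of Serpinb3b and Serpinb3c share most of their letters. The forestomach ratios of these genes were 8.28 ± 0.31 for Hrnr, 7.23 ± 0.55 for Lor, 7.03 ± 0.35 for Rptn (repetin), 6.70 ± 0.26 for Lce1m, 8.19 ± 0.21 for Serpinb3b and 7.98 ± 0.37 for Serpinb3c (SD, n = 4 each).

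Enzymes that seal the envelope and make its lipids were as high. Of 19 transglutaminases and barrier lipid enzymes kept, 17 were higher and none lower, with a median of 5.40. Under median centring 14 were higher, with a median of 3.98. Abca12, the lipid transporter that loads lamellar granules, read 8.89, 8.41, 8.70 and 7.76 (mean 8.44 ± 0.49). Lipm, an epidermal lipase, averaged 7.88 ± 0.22, Elovl4, which elongates very long fatty acids, 7.85 ± 0.36, and Tgm1, the transglutaminase that cross-links the envelope, 5.75 ± 0.20. Alox12e, an epidermal lipoxygenase, was the lowest at 0.19 ± 0.53 and was not called.

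Keratins of the upper layers were among the high genes. Of 10 suprabasal keratins kept, 8 were higher and none lower (median 5.28). Krt1, a keratin of cornifying epidermis, read 7.23, 7.54, 7.74 and 7.26, a mean of 7.44 ± 0.24, and its partner Krt10 averaged 5.42 ± 0.20. Krt4 and Krt13, the pair that marks moist squamous linings such as oesophagus, averaged 6.56 ± 0.30 and 6.49 ± 0.26. Forestomach thus carried keratin pairs of both kinds of lining on all 4 arrays. Krt23 averaged 6.80 ± 0.23, and Krt36 was the lowest at 0.70 ± 0.23 and was not called. Of 16 basal keratinocyte genes, 11 were higher and none lower (median 3.15). Trp63, the p63 factor that maintains stratified epithelium, averaged 7.06 ± 0.45, Perp, a desmosome gene under its control, 6.93 ± 0.42, and Col17a1, a hemidesmosome collagen, 6.57 ± 0.33. The basal keratins Krt5 and Krt14 averaged 3.80 ± 0.24 and 4.18 ± 0.30, and the integrin Itga3 was lowest at -0.46 ± 0.22, not called. Among 10 hair keratins kept of 16 on the array, 3 were higher, led by Krt75 at 5.47 ± 0.33, a keratin of the hair follicle's companion layer, and 1 was lower, Krt86 at -1.77 ± 0.13. The lower call was lost with normexp and loess.

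Protease inhibitors and the proteases of shedding were among the highest lists. Stefins and clade B serpins, inhibitors of cysteine and serine proteases, had 17 of 18 kept members higher, none lower, and a median of 6.77. Csta1 (cystatin A1) read 9.16, 8.84, 8.93 and 8.75 with a mean of 8.92 ± 0.17, Stfa1 averaged 8.80 ± 0.13 and Serpinb13 8.34 ± 0.23. Cstdc5, a stefin not on the list, averaged 8.94 ± 0.18. Mouse stefins are near copies and their probes may share signal. The exception in the list was Cstb, the stefin made by most cells, at 0.01 ± 0.40. Of 20 kept genes for shedding proteases and their inhibitors, 19 were higher and none lower (median 5.32). The higher ones were 15 with normexp and loess and 14 under median centring, where the median was 4.04. Spink5, the inhibitor of epidermal kallikreins, read 8.91, 8.32, 8.61 and 8.40 (mean 8.56 ± 0.27), Tmprss4 averaged 8.24 ± 0.39, Spink12 8.14 ± 0.32 and the kallikrein Klk7 6.49 ± 0.34. The widely expressed protease Capn1 was lowest at 1.25 ± 0.24 and was not called.

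Junction genes were mostly higher. Of 28 desmosome and tight junction genes, 20 were higher (71.4%) and 2 lower (7.14%), against 15.3% and 9.01% of all genes tested. Their median was 2.93. Under median centring 16 were higher, with a median of 1.98. Dsc1, the desmocollin of upper squamous layers, was the highest of all genes tested, with 9.36, 9.20, 9.37 and 8.98 (mean 9.22 ± 0.18). Its raw Cy3 signals were only 82.2 to 99.6, and the mean was 8.22 when background was corrected by normexp with loess. Cldn23, a claudin, averaged 6.93 ± 0.54, E-cadherin (Cdh1) 6.82 ± 0.22 and desmoplakin (Dsp) 6.67 ± 0.09. The 2 lower genes were Cldn7 at -2.64 ± 1.18 and Pkp2 at -1.67 ± 0.35. Both calls were lost without replicate 1, 2 or 3, and Cldn7 on replicate 4, at -0.96, lay above its other values, which ran from -3.52 to -2.70. Gap junction gene Gjb2 (connexin 26) averaged 8.24 ± 0.18.

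Transcription factors of squamous epithelium were higher for 22 of 28 and lower for 2 (median 4.46). Under median centring 18 were higher, with a median of 3.81. After Trp63, Tfap2c averaged 7.0 ± 0.66 and Pitx1 6.67 ± 0.21, and Klf4, which drives late differentiation, 3.72 ± 0.37. Sox2 averaged 6.70 ± 0.24, with the pool's signal well above background on 2 of 4 arrays. Bnc1 at -2.18 ± 0.54 and Sox21 at -2.29 ± 0.38 were the lower ones, and for Sox21 the other 2 kept probes had the opposite sign, so that the median over its probes was 1.76.

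Alarmins and stress keratins, the early warning genes of squamous epithelium, were higher for 17 of 21 and lower for 1 (median 3.82). Il1f5, the interleukin-36 receptor antagonist, read 8.01, 8.11, 8.27 and 7.79, and S100a9, a calcium-binding protein of neutrophils and keratinocytes, averaged 7.54 ± 0.15. Defb1, a defensin, averaged 6.93 ± 0.46. S100a8, the partner of S100a9, read -2.63, -0.78, -1.54 and 3.35 (mean -0.40 ± 2.61) and was not called. Its value on replicate 4 was the only one above 0. Lcn2, an iron-trapping neutrophil and epithelial protein, was the lower one at -1.94 ± 0.61, a call that was lost without replicate 1, 2 or 3.

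**Figure D2:**
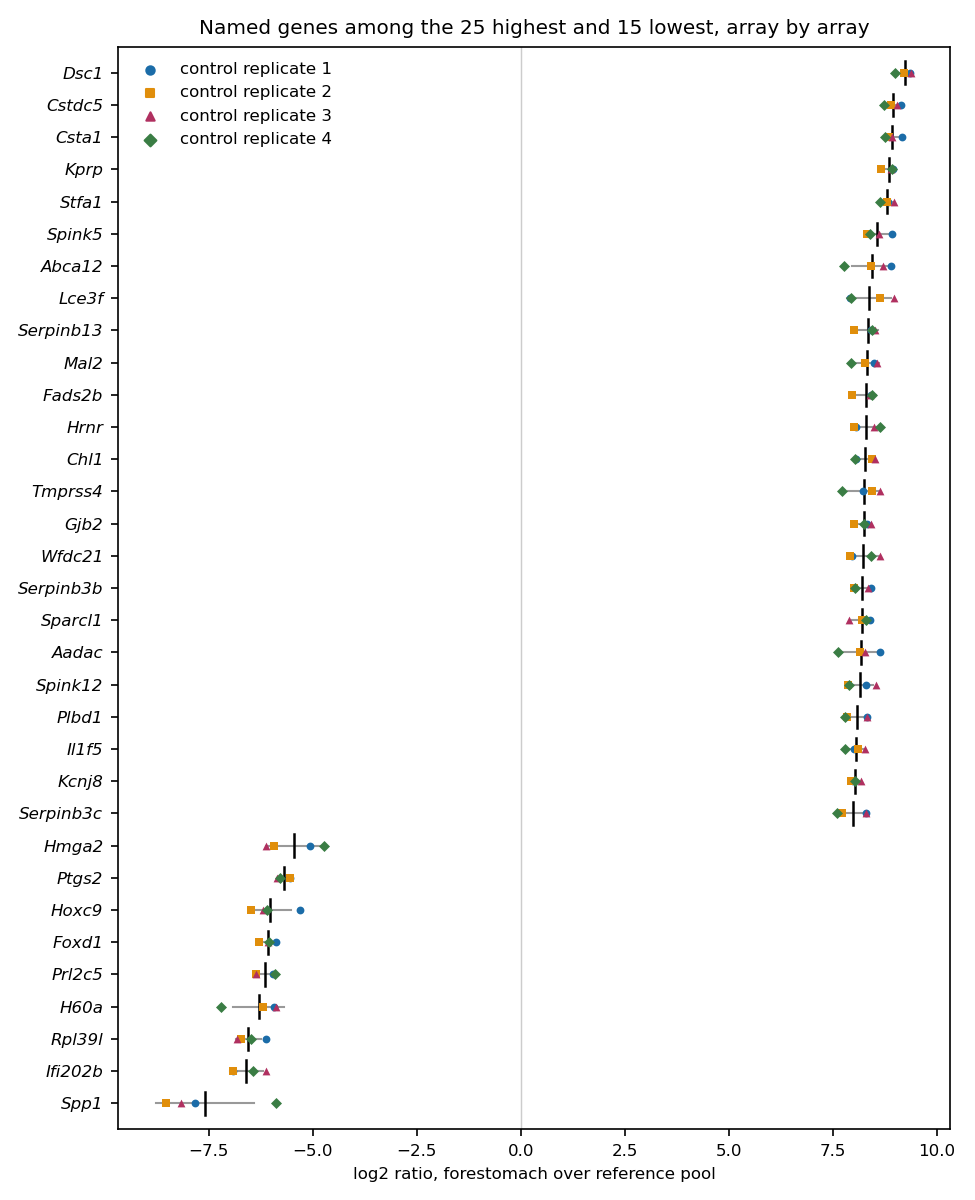
Log2 ratio of forestomach over the reference pool (horizontal axis) on each of the 4 control arrays for the genes the text names among the 25 highest and 15 lowest. Black ticks are means and grey lines span 1 SD on either side. The highest genes lie between means of 7.98 and 9.22 with little spread, and the lowest gene, Spp1, has 1 array at -5.89 and 3 from -8.52 to -7.84.

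Several of the 25 highest genes have no part in cornification that the lists name. Mal2, a protein of apical membrane traffic, averaged 8.31 ± 0.28, Fads2b, a fatty acid desaturase, 8.29 ± 0.23, and Aadac, an esterase, 8.17 ± 0.42. Chl1, a neural adhesion protein, averaged 8.25 ± 0.25 and Kcnj8, the potassium channel subunit of smooth muscle and pericytes, 8.02 ± 0.10. Wfdc21 and Plbd1 averaged 8.22 ± 0.36 and 8.06 ± 0.29. The cells that carry these transcripts were not separated.

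For 192 genes, 158 with a symbol, Cy5 was well above background on all 4 arrays and Cy3 on none, so only a lower bound can be given. Each bound sets the mean of the bright channel against, per array, the higher of the dim spot's own signal and the lowest signal called well above background, after loess and Aquantile, and is open to dye bias. Skint3 was at least 40.0-fold higher in forestomach, Pof1b at least 29.8-fold and Sostdc1 at least 21.7-fold. The muscle gene Pln (phospholamban) was at least 14.4-fold higher, Serpina12 at least 14.3-fold and desmoglein Dsg1a at least 13.9-fold.

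Muscle was the next block. Smooth muscle contractile genes were higher for 21 of 25 and lower for none (median 4.38). Cnn1 (calponin) read 7.39, 7.80, 7.57 and 6.95 (mean 7.43 ± 0.36). Synm and Synpo2, of the muscle cytoskeleton, averaged 7.05 ± 0.33 and 6.62 ± 0.29, and smooth muscle myosin Myh11 averaged 6.47 ± 0.15, which is 88.6-fold. Myocd, the coactivator that drives these genes, averaged 6.14 ± 0.20, Des (desmin) 5.78 ± 0.06 and Acta2 3.49 ± 0.27. The raw Cy3 signals of Myocd were only 44.2 to 64.5. Cnn2, the calponin made by many cells, was lowest at -0.13 ± 0.29. The CArG box, which serum response factor binds, was present in 3 of 20 of their promoters (15.0%) against 1.38% of all, and in 3 of 33 promoters of glutathione and xenobiotic enzymes (9.09%) and 2 of 19 of striated muscle genes (10.5%). Striated muscle genes were higher for 9 of 25 kept (36.0%) and lower for 3 (12.0%), against 15.3% and 9.01% of all genes tested. Their median was 0.17. Myh2, a fast skeletal myosin, read 5.90, 6.24, 5.87 and 5.31, Ckm (muscle creatine kinase) averaged 4.97 ± 0.49 and Actc1 4.11 ± 0.34. On the other side Actn3, of fast skeletal fibres, was -2.97 ± 0.15. Another 5 striated genes on the array were not kept.

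Connective tissue was uneven. Of 34 fibroblast and collagen genes, 14 were higher and 2 lower with a median of 0.48. Under median centring 14 were higher and 7 lower, and the median turned to -0.15. Sparcl1, a matrix protein of vessels and muscle, read 8.38, 8.19, 7.88 and 8.29, Col14a1 averaged 6.33 ± 0.36 and lumican (Lum) 5.71 ± 0.44. The main fibrillar collagen genes were not among them: Col1a1 read -0.75, -1.26, -2.46 and -1.91 and was not called, nor was Col1a2 at -1.06 ± 0.60. Col5a2 at -1.83 ± 0.26 and the fibroblast receptor Pdgfra at -1.72 ± 0.34 were lower. Endothelial genes were higher for 17 of 24 and lower for none (median 3.42), with Lyve1, of lymphatic vessels, at 6.81 ± 0.18, Emcn at 6.21 ± 0.12 and Mmrn1 at 5.75 ± 0.78. Under median centring 13 endothelial genes were higher, with a median of 2.20. Cd34 was the lowest at 0.11 ± 0.40, not called. Enteric neuron and glia genes were higher for 15 of 23 kept and lower for none (median 2.25), a count that was 9 under median centring. Vip, the relaxing transmitter of the gut wall, read 4.97, 6.19, 6.09 and 5.84, and the synaptic genes Syt1 and Snap25 averaged 4.79 ± 0.49 and 4.39 ± 0.53.

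Resident immune genes differed by cell type. Mast cell and eosinophil genes were higher for 8 of 16 kept and lower for none (median 1.78). Kit, a receptor of mast cells and of the pacemaker cells of gut muscle, averaged 5.68 ± 0.32, mast cell carboxypeptidase Cpa3 read 5.02, 5.51, 5.62 and 6.09, and the chymase Cma1 averaged 5.29 ± 0.28. Macrophage and dendritic cell genes were higher for 14 of 27 (51.9%) and lower for 3 (11.1%), against 15.3% and 9.01% of all genes tested. Their median was 2.29, which was 1.15 with normexp and loess. The class II gene H2-Aa averaged 6.15 ± 0.61, Cd163, of tissue macrophages, 5.60 ± 0.18 and H2-Eb1 5.31 ± 0.48. Cd207 (langerin), a marker of Langerhans cells, read 2.50, 3.22, 4.07 and 3.50, above 1 on every array. Cd14 was the lowest at -2.25 ± 0.55. T and B lymphocyte genes were called lower more often than higher, with 2 of 20 kept higher and 7 lower, against 15.3% and 9.01% of all genes tested. The list as a whole was not low: 11 members were not called, and its median of 0.37 lay above the 0.15 of all genes tested. Ms4a1 (CD20) read -5.35, -4.27, -4.99 and -4.43 and Cd79b averaged -4.21 ± 0.22, while the immunoglobulin gene Ighm was higher at 3.67 ± 0.22. Cell lines of the macrophage, B and T lineages are in the pool, and their part in these ratios was not tested. Red blood cell genes were higher for 5 of 11 kept and lower for 1 (median 1.49, which was 0.71 under median centring). The haemoglobin gene Hba-a2 averaged 4.88 ± 0.45 and Car2, in red cells and also gastric and other epithelia, 5.57 ± 0.25. The lower one was Klf1, an erythroid factor, at -1.71 ± 0.17, a call that was lost with normexp and loess.

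Enzymes of alcohol, aldehyde and retinoid metabolism were higher for 16 of 28 kept and lower for 2 (median 2.29). Aldh3b2 read 6.27, 6.73, 6.92 and 6.41 (mean 6.58 ± 0.30), and Aldh1a7, which oxidises aldehydes, averaged 5.78 ± 0.22. Crabp2, the protein that carries retinoic acid to its receptor, averaged 5.75 ± 0.59, whereas its relative Crabp1 was lower at -3.70 ± 0.11. Of the alcohol dehydrogenases, Adh1 averaged 5.28 ± 0.23 and Adh7, the class made in upper gut epithelium, read 4.57, 4.86, 5.12 and 3.97. Aldh2, the mitochondrial acetaldehyde enzyme, was not called at 0.33 ± 0.53. Aldh3b1 was lower at -2.50 ± 0.25. Cyp2e1, the ethanol-inducible cytochrome, read 3.18, 6.18, 6.68 and 6.31 and was low on replicate 1. Glutathione and xenobiotic enzymes were higher for 23 of 40 and lower for none (median 2.77), led by the carboxylesterase Ces1d at 7.10 ± 0.24, the epithelial glutathione peroxidase Gpx2 at 6.97 ± 0.33 and the sulfotransferase Sult1a1 at 6.18 ± 0.53. Gpx4 was lowest at -1.24 ± 0.28 and was not called.

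Proliferation genes marked the pool. Of 47 cell cycle genes, 45 were lower in forestomach and none higher, with a median of -2.58. Mki67, the gene of the Ki-67 antigen, read -3.28, -3.35, -3.57 and -3.84 (mean -3.51 ± 0.25), which is 11.4-fold lower (adjusted p = 2.48e-05). The kinetochore genes Ndc80 and Cenpe averaged -3.97 ± 0.55 and -3.46 ± 0.25. Bub1 stood apart at 0.60 ± 0.22, not called, though its other kept probe had the opposite sign and the median of its probes was -2.17. Ccne1, at -0.79 ± 0.17, was the other gene not called. Ribosomal protein genes, by contrast, lay near the middle with 1 of 40 higher, none lower, and a median of 0.30. Rps14 was the 1 called, at 1.48 ± 0.11, and its adjusted p was 0.0541 without replicate 2. The lowest was Rpl14 at -1.22 ± 0.14, which was called lower under median centring (-1.67) and in the processed signals (-1.34).

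Promoters of the cell cycle genes were searched for other letters. CCAAT, bound by the factor NF-Y, was present in 70.0% of 40 of them on either strand against 38.3% of all, and TTTGAA, the cell cycle homology element known from late cell cycle genes, in 45.0% against 13.4%. Neither share was particular to them: of 7 hair keratin promoters 71.4% held CCAAT and 71.4% TTTGAA, and CCAAT was in 71.4% of 7 red blood cell promoters and 64.3% of 14 liver promoters. The cell cycle promoters held a median of 24 CpG. Shown are the 4 lowest genes with both motifs in the 100 bases before the start, with capitals on CCAAT and TTTGAA in either orientation.
Ube2c, chr2:164769829-164769928, plus strand: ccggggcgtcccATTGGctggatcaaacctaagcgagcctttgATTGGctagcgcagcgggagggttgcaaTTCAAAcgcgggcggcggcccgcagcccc
Top2a, chr11:99024190-99024289, minus strand: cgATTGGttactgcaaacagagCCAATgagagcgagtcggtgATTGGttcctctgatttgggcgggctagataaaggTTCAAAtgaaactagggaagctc
Kif11, chr19:37376282-37376381, plus strand: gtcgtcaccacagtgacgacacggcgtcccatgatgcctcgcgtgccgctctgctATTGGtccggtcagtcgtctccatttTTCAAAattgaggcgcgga
Cdc20, chr4:118437344-118437443, minus strand: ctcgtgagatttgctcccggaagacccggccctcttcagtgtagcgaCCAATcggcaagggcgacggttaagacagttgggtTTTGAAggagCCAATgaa

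These genes averaged -3.13 ± 0.36 for Ube2c, which adds ubiquitin for mitotic exit, -2.69 ± 0.32 for Top2a, a DNA topoisomerase, -2.62 ± 0.28 for Kif11, a spindle motor, and -2.56 ± 0.31 for Cdc20, an activator of the anaphase-promoting complex. In Ube2c, Top2a and Cdc20 CCAAT or its reverse occurs more than once.

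Immediate early genes, which respond to serum and handling, were lower for 9 of 23 kept and higher for 2 (median -1.26). Ccn1 (Cyr61) read -3.46, -3.59, -4.22 and -4.05, Fos averaged -3.73 ± 0.67 and Egr1 -3.12 ± 0.48. Egr3 was higher at 1.99 ± 0.50 and Klf2 at 1.82 ± 0.31. Under median centring neither was called.

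The lowest genes have varied roles. Spp1 (osteopontin) read -7.84, -8.52, -8.16 and -5.89 (mean -7.60 ± 1.17), with a raw Cy5 signal of 887 to 5524 against 423204 to 459549 in Cy3. Ifi202b, an interferon-inducible gene, averaged -6.60 ± 0.39, the ribosomal protein copy Rpl39l -6.55 ± 0.31 and H60a, a ligand of natural killer cells, -6.30 ± 0.62. The part that mouse strain had in these values was not tested. With normexp and loess Spp1, which is bright, averaged -7.53. Prl2c5, a placental hormone (proliferin family), averaged -6.15 ± 0.25, Foxd1 -6.08 ± 0.17 and the posterior patterning gene Hoxc9 -6.02 ± 0.50. Ptgs2 (cyclooxygenase-2) averaged -5.69 ± 0.17 and Hmga2, a fetal chromatin protein, -5.46 ± 0.67. In raw Cy5, Foxd1 lay at 67.4 to 72.3, H60a at 80.8 to 92.5, Rpl39l at 89.2 to 100 and Hoxc9 at 94.3 to 105. The median was 73.6 for probes just inside the filter. Ratios of such dim spots depend on how background is handled, and the value of Spp1 with normexp does not speak for them. The embryonic and placental list had 5 of 13 kept genes lower and 1 higher with a median of 0.33, which turned to -0.32 under median centring, and 8 of its 21 genes on the array were not kept. Without replicate 2 the lower ones were 3.

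In the reverse of the bounds above, 447 genes, 209 with a symbol, were well above background in Cy3 on all 4 arrays and in Cy5 on none. Phex, an endopeptidase of bone, was at least 16-fold lower in forestomach and Hoxa11 at least 10.6-fold, followed by Ssxb2 at least 7.31-fold, Rhd at least 6.86-fold and Hoxa10 at least 6.82-fold. Hoxa10 and Hoxa11 pattern posterior body regions, as Hoxc9 does. Of 6 sex chromosome genes kept, 1 was higher (16.7%), 2 were lower (33.3%) and 3 were not called (median 0.50). Over all genes tested 15.3% were higher and 9.01% lower. The higher one was the Y-linked Eif2s3y at 2.95 ± 0.23. Only 1 of 4 Xist probes was kept, at -2.0 ± 0.24. The other 3 were well above background in Cy5 on 0 to 2 arrays and read from -9.70 to -5.29.

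The 4 controls differed widely from each other in genes of neighbouring organs. Pancreatic acinar genes had medians of 1.92, 0.31, 6.40 and 2.13 on replicates 1 to 4, so replicate 3 stood far above the rest. On replicate 3 the list lay 5.03 above the mean of the other arrays by its median member. Amylase Amy1 read 2.75, 1.45, 9.61 and 3.04 there, from raw Cy5 signals of 2051, 1365, 577350 and 3594. The elastase Cela3b read 2.78, -0.21, 8.21 and 0.93, and the carboxypeptidase Cpb1 3.97, 3.61, 8.80 and 3.85. Cpb1 was thus above 3 on all 4 arrays. Only 3 of 22 kept members were called, all higher (13.6%, against 15.3% of all genes tested). The called members were 4 without replicate 3 and 5 without replicate 2. The list's median fell from 2.90 to 1.54 without replicate 3.

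Replicate 4 stood apart in genes of the glandular stomach. That list's medians were 0.65, 0.17, 1.16 and 4.78. Cathepsin E (Ctse) read -3.12, -3.67, -3.23 and 3.92, and Anxa10, whose Cy3 signal was well above background on 2 arrays, 1.5, -0.42, 3.34 and 8.75. Gastrokine Gkn2 read 5.32, 0.45, 6.07 and 7.21 and the trefoil peptides Tff1 4.04, 0.01, 4.51 and 7.64 and Tff2 4.23, -0.56, 4.93 and 4.29, so replicate 2 was lowest for all 3. Keratins of simple epithelium moved with them: Krt20 read -3.71, -5.55, -4.44 and 2.53, Krt19 -3.75, -5.27, -3.39 and 2.55 and Krt8 -3.79, -4.26, -3.89 and 0.95. Krt18 was called lower and Krt7 higher over the 4 arrays, and the call of Krt18 was lost without replicate 1, 2 or 3 and that of Krt7 without any 1 of the 4. Without replicate 4, Krt8, Krt18, Krt19 and Krt20 were all lower. Of 21 glandular genes kept, 2 were called higher (9.52%, against 15.3% of all genes tested) and none lower. That was 4 higher without replicate 2, 1 without replicate 1 or 3, and 1 higher with 2 lower without replicate 4. Squamous lists moved less: on replicate 4 the median member of each of the 9 lists lay between -0.40 and 0.19 from the mean of the other arrays, against 3.57 for the glandular list. Single members did move, since 6 of 21 alarmin and stress keratin genes and 4 of 28 junction genes lay more than 1 above that mean on replicate 4. The part that tissue from the stomach, pancreas or other sites had in these samples was not tested.

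**Figure D3:**
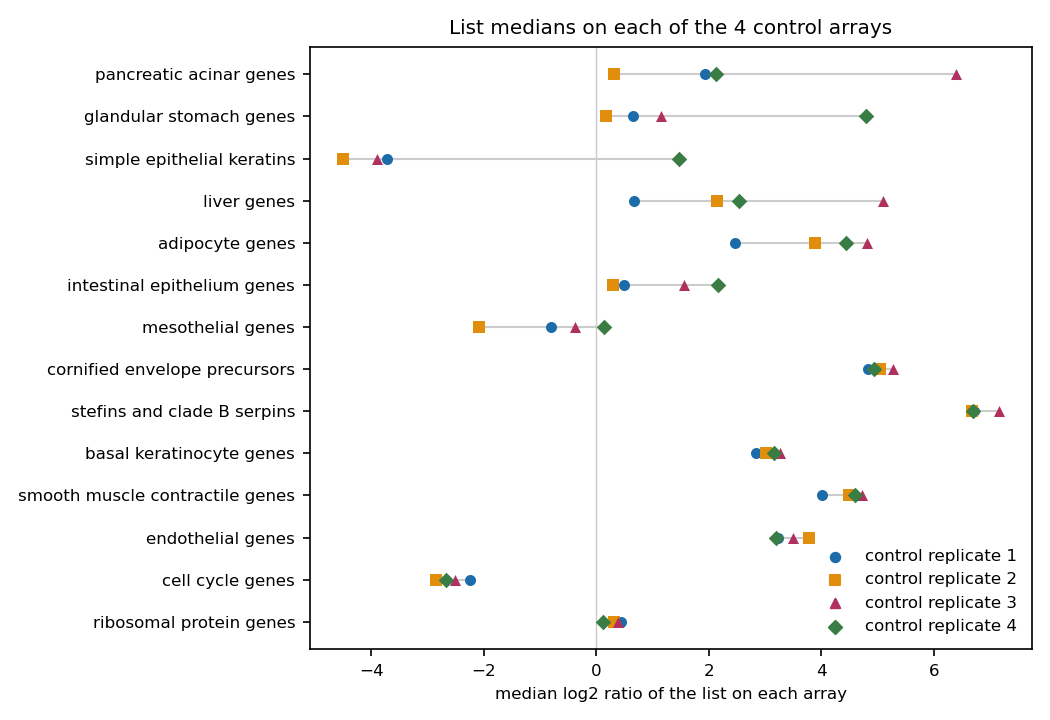
Median log2 ratio (horizontal axis) of 14 gene lists on each of the 4 control arrays. Pancreatic genes stand out on replicate 3 (6.40), glandular stomach genes (4.78) and simple keratins (1.47) on replicate 4, and adipocyte genes are lowest on replicate 1 (2.47), while the squamous, muscle, endothelial and cell cycle lists lie close together.

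Fat and liver genes varied too. Adipocyte genes were higher for 14 of 21 and lower for none (median 3.24), with Cfd (adipsin) at 7.76 ± 0.59, Cidea at 7.11 ± 0.36 and the glucose carrier Slc2a4 at 6.86 ± 0.15. On replicate 1 several were far lower: adiponectin (Adipoq) read 3.29, 6.41, 6.98 and 6.62, perilipin Plin1 2.37, 5.76, 6.40 and 5.81 and resistin (Retn) -0.17, 3.88, 4.81 and 4.44. Cfd read 6.94 there against 7.77 to 8.29, but its raw Cy5 was 2670 against 105905 to 136114. Its Cy3 was 87.1 there against 580 to 1088, so the ratio moved less than Cy5. Cidea, at 6.90 on replicate 1 against 6.78 to 7.60, and Slc2a4, at 6.97 against 6.64 to 6.92, were not lowest there. The list's median rose to 4.38 without replicate 1, with 17 called. Cyp2e1, named above, was also lowest on replicate 1. Liver genes, such as Mup1 (4.04, 5.77, 8.12 and 4.79) and albumin (Alb; 0.67, 3.29, 5.08 and 2.12), were highest on replicate 3 and lowest on replicate 1. Of 18 kept, 3 were higher (16.7%) and 1 lower (5.56%), where 15.3% and 9.01% of all genes tested were. Without replicate 1, 8 were higher, while the median of 2.60 fell to 1.47 without replicate 3. Afp, which a fetal liver makes, was the lower one at -4.34 ± 0.95. Of 26 intestinal genes on the array 17 were kept, 6 of them higher and 1, the sucrase Sis at -1.97 ± 0.26, lower. With normexp and loess, and with median centring, 2 were higher and none lower. Among the 6 was Fabp1 with 1.03, 3.99, 8.21 and 5.55, a call that was lost without replicate 2, 3 or 4. Mesothelial genes were lower for 3 of 11 (27.3%) and higher for 2 (18.2%), with mesothelin (Msln) at -3.96 ± 0.73. The higher ones were 1 without replicate 1, 3 or 4, and the lower ones 4 without replicate 4.

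**Figure D4:**
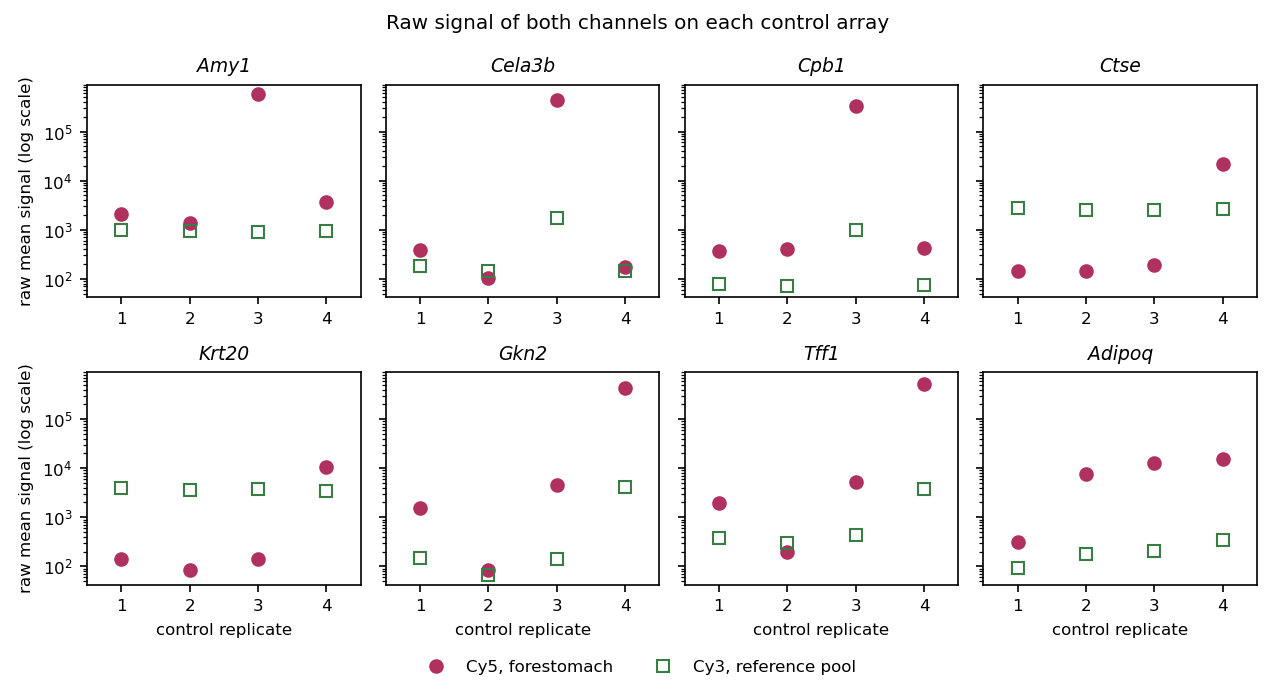
Raw mean signal (vertical axes, log scale) of the Cy5 channel, which carries forestomach RNA, and the Cy3 channel, which carries the same reference pool on every array, for 8 genes on the 4 control arrays. Cy5 rises by orders of magnitude on 1 array or falls on another, and for Cela3b, Cpb1, Gkn2, Tff1 and Adipoq Cy3 is highest on an array of high Cy5 although the pool is the same.

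The raw channels show where such ratios come from. For Amy1 and Ctse the pool's Cy3 signal was steady, at 907 to 993 and 2497 to 2782, and the change lay in Cy5. For Gkn2 Cy5 was 1531, 84.0, 4462 and 425394, and Cy3 was 148, 66.9, 144 and 4067. For Tff2 Cy5 was 427, 51.8, 10781 and 115832, and Cy3 was 75.7, 41.1, 638 and 8735. Its ratios on replicates 1 and 4 (4.23 and 4.29) thus look alike although Cy5 was far higher on replicate 4. For Cpb1, Cy5 of 338037 on replicate 3 came with Cy3 of 978, where the other arrays had 72.9 to 77.2. Over all kept probes, 61 had Cy5 on their brightest array more than 6 above their median on the log2 scale, and Cy3 on that array was more than 1 above the other arrays for 56 of them (91.8%). Where Cy5 rose by less than 1, this was so for 126 of 28361 probes (0.444%). For such spots the log2 ratio is smaller than the change in Cy5, and the cause was not tested. In the opposite case Lrrn2 and Cdh20 were low on replicate 1 only (-0.70 against 4.49 to 4.86, and -3.40 against 0.91 to 1.51), where Cy3 was 1047 and 3128 against at most 54.6 elsewhere, so it was the pool's channel that changed.

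The same probes were read in the table for the other 8 arrays, which share the reference pool. Of the 3142 genes higher in controls, 2848 (90.6%) were above 1 on all 4 arrays of the 4-week group and 2391 (76.1%) on all 4 of the 40-week group. Of the 1856 lower genes, 1616 (87.1%) and 1091 (58.8%) were below -1 on all 4. The group mean kept its sign for 3140 higher and 1856 lower genes at 4 weeks. At 40 weeks it did so for 3130 and 1793. The share of all genes tested beyond these limits was not counted, so these shares have no background beside them. The 40-week columns have a narrower spread over genes, with SDs of 1.16 to 1.23 against 1.69 to 1.91 in the controls, so a fixed limit is not equally strict in them. Kprp, for example, lay between 6.87 and 7.82 in the 4-week arrays and between 5.57 and 6.31 in the 40-week arrays. Krt1 ranged over 4.76 to 6.31 and 2.74 to 3.29, and Mki67 over -3.86 to -3.20 and -2.49 to -1.72. All of these examples keep the sign seen in the controls, which not every called gene did.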

How the data were processed

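The files are scanner output of 12 two-colour arrays and the series' value table. Per the file headers, intensities came from Agilent Feature Extraction 10.7.3.1, while the submitters' processing notes name version 9.1. The authors' deposited values are log2 ratios, Cy5 over Cy3. Its direction and log2 scale were checked against the raw channels (Pearson's r of 0.974 to 0.983 across probes). The sign was the same for 60.6% to 72.6% of probes, and the raw ratios are not centred: the median signal above background was 112 to 151 in Cy5 and 232 to 269 in Cy3. Its columns' medians lay between 0.024 and 0.067, and its normalisation and centring are not given in the sources used here. The deposited flags for spots well above background gave the filter: Cy5 well above on at least 3 of the 4 control arrays. Exact zeros with a channel at or below local background, 617 to 781 an array, were set to missing. Probes were named through accession, symbol or synonym, and the probe with the brightest mean of both channels stood for a gene. The fit (R 4.3.3, limma 3.58.1, the data.table package, version 1.17.8) had an intercept only, used treat against a log2 ratio of 1, and was tested on simulated data. Gene lists are described by counts and medians, with no set test.

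Named genes are the 25 highest with Cy3 well above background on at least 3 arrays, the 15 lowest, the 3 highest and the lowest of each list, the 10 largest bounds in each direction, and per array the 5 genes furthest from the other arrays. The members and lists were chosen with earlier results of these data known. Alternatives were the background correction, the normalisation, the filter, the choice of probe, the threshold and the arrays left out. Some genes that this rule names are not reported here.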

Additional observations from a re-analysis of the deposited data

Results flagged for a closer look

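Of 174 genes named, 20 had 1 array far from the other 3 by Dixon's ratio (beyond the 95% critical value), as did 2 of 33 list medians. Chance flags about 1 in 20 groups, and 5.58% of all genes tested were flagged. Some of the genes named were chosen because 1 array differed, so their share is not to be set against either rate.

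Several flags fall on genes of fat. On replicate 1, Adipoq read 3.29 against 6.41 to 6.98 elsewhere and Plin1 2.37 against 5.76 to 6.40, and Cyp2e1, of liver and fat, 3.18 against 6.18 to 6.68. Slc2a4, a fat and muscle gene, was instead lowest on replicate 3 at 6.64. On replicate 3 the pancreatic gene Cpb1 read 8.80 against 3.61 to 3.97.

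On replicate 4 the gastric gene Ctse read 3.92 against -3.67 to -3.12, Krt8 read 0.95 against -4.26 to -3.79, and the median of the simple epithelial keratins was 1.47 against -4.51 to -3.71. Tff2, a gastric mucus peptide, was lowest on replicate 2 at -0.56, against 4.23 to 4.93.

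On replicate 1 Lrrn2 read -0.70 and Cdh20 -3.40, both with a raised reference channel. The synaptic gene Snap25 was lowest there at 3.61, and the cell cycle genes Kif11 and Top2a were highest there, both at -2.21.

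The remaining flags are these. On replicate 2, Kprp read 8.65, Serpinb13 7.99 and Fads2b 7.95, each the lowest of its 4 values. On replicate 3, Myh11 read 6.70, Capn1 1.61 and the stefin and serpin median 7.16, each the highest. Krt86 was highest there as well, at -1.57, and Pdgfra read -2.23, the lowest.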

How the results depend on the processing

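Under median centring 1745 genes were higher and 2909 lower. The treat test against a log2 ratio of 2 gave 1664 and 478, and limma's eBayes against 0 gave 8078 and 6116. The other alternatives stayed within 1.5 times of the counts reported, and leaving out 1 replicate gave 2708 to 3104 higher and 1433 to 1799 lower. Over 174 named genes and 17 alternatives, 2803 values kept their direction and their side of the threshold, 80 lost the call, 43 gained it and 26 changed sign. Of the medians of the 33 lists under 15 alternatives, 422 moved by less than 1 SD between arrays, 69 moved by more and 4 changed sign.

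Sign changes under median centring were Aldh2 at -0.18, Alox12e at -0.10, Bub1 at -0.17, Cd34 at -0.17, Cdh20 at -0.28 and Cstb at -0.095, and the medians of the fibroblast list (-0.15) and the embryonic list (-0.32). With normexp and loess Cdh20 was -0.37 and Cstb -0.018, and without background correction -0.25 and -0.0039. In the processed signals Alox12e was -0.14 and Cstb -0.13. With the median over a gene's probes Bub1 was -2.17 and Sox21 1.76. Scaled arrays put Cstb at -0.0052. With no filter the striated muscle median was -0.03 and the embryonic -0.29. Leaving out 1 replicate, Cd34 ranged from -0.068 (without replicate 1) to 0.22, S100a8 from -1.65 to 0.35 (without replicate 1), Cstb from -0.12 (without replicate 3) to 0.19 and Cdh20 from -0.44 (without replicate 4) to 1.2. Without replicates 3 and 4 together, Alox12e was -0.21, Cdh20 -1.11, Cnn2 0.0245 and Cstb -0.27. The cause was not tested.

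No paired analysis was possible because no second group of samples enters a result, so the replicate numbers pair no samples. The channels are already compared within each array. Dim spots limit the size of ratios: Dsc1, with a dim reference channel, went from 9.22 to 8.22 with normexp and loess, and Kprp, bright in both channels, from 8.85 to 8.70. Less extreme ratios are open to this too. Raw Cy3 was 44.2 to 64.5 for Myocd, 52.6 to 72.2 for Kit, 52.8 to 67.6 for Vip and 50.6 to 60.9 for Cd207. The number of arrays, 4, limits the precision, and no dye swap separates a dye effect from a difference.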
